A study of Homo sapiens with 6 samples.

Results

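AUTS2 is a regulator of transcription and of neuronal development, and its gene on chromosome 7 carried more intronic clusters than any other gene in complexes of both forms of Rbfox1. A cluster is a place where RNA that stayed protected from nuclease was recovered and sequenced. The members described here are all clusters whose gene field read AUTS2 in either of 2 lists, after repeated rows were dropped. They numbered 2094 of 554456 clusters, namely 1463 of 366429 (0.40%) in the wild-type list and 631 of 188027 (0.34%) in the F125A list. AUTS2 was selected on these numbers of clusters per gene, so they are given as a description and support nothing further.

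The RNA came from FLAG-purified Rbfox1/LASR complexes of HEK293 Flp-In cells, a line from human embryonic kidney built to take up a transgene at a single site. All cells lacked Rbfox2 and were of 1 knockout line, number 7. The WT group (3 libraries) carried FLAG-Rbfox1(WT), the F125A group (2 libraries) carried FLAG-Rbfox1(F125A), and 1 control library came from the same knockout line with no transgene and was not analysed here. Each Rbfox1 group had 1 list of clusters in introns of protein-coding genes on hg38, so no value has a replicate error, no test between the conditions was possible, and the intervals below are exact 95% intervals that cover counting error only. The lists hold places without read counts, so read depth is unknown, and they hold no expression level by which the cell type could be checked.

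Rbfox proteins bind the pentamer GCAUG, mostly in introns, and steer the inclusion of nearby exons. In the nucleus they sit in LASR, a large assembly of other splicing regulators such as hnRNP M, hnRNP H, hnRNP C and Matrin 3, which bring RNA contacts of their own. F125A replaces a phenylalanine of the Rbfox1 RNA recognition motif that takes part in holding the pentamer. AUTS2 is a very long gene in which the first introns take up most of the length, while the later exons lie close together near the 3' end. Its protein joins variant Polycomb repressive complexes in the nucleus and acts on the actin cytoskeleton in the cytoplasm.

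The gene lies at chr7:69598475-70793506 on the plus strand, 1195 kb in the RefSeq table for GRCh38.p14, and all 2094 clusters were on its strand. The WT clusters together covered 93.4 kb, or 7.82% of the gene, and the F125A clusters 42.5 kb, or 3.56%. The first WT cluster (chr7:69600041-69600139, 99 nt) and the first F125A cluster (chr7:69600042-69600139, 98 nt) were the same place, whose left edge lay 1566 nt and 1567 nt past the annotated start. The last WT cluster (chr7:70788639-70788733) ended 4773 nt before the annotated gene end and the last F125A cluster (chr7:70779500-70779576) 13930 nt before it. Clusters therefore spanned nearly the whole gene in both lists.

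Although AUTS2 held the most clusters, it was not the gene in which they were densest. It had 122 WT clusters per 100 kb (interval 116 to 129) and 52.8 F125A clusters per 100 kb (48.8 to 57.1). Among the 5626 genes that held 20 or more clusters, WT and F125A counted together (the genes tested below), these densities ranked 654 and 1423, and among the 2103 such genes of at least 100 kb they ranked 75 and 154. Over those 2103 genes the median density was 38.5 WT and 16.3 F125A clusters per 100 kb. Within the longest of 20 bins of tested genes, 282 genes of 407 to 2299 kb with a median of 26.6 WT clusters per 100 kb, AUTS2 ranked 2 in the WT list and 8 in the F125A list. A high rank among genes of like length follows from selecting AUTS2 on its number of clusters, so nothing further is read from it.

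The 5 genes of at least 100 kb with the highest WT density were much shorter. ZNF644, a zinc finger gene of 107 kb, had 256 WT clusters per 100 kb. SLIT2, an axon guidance ligand gene, had 245, PTBP2, a neuronal splicing repressor gene, 239, SCAF8, which encodes a protein bound to RNA polymerase II, 208, and PHF14, a PHD finger gene, 195. The genes whose density in both lists was nearest to that of AUTS2, measured as distance in log2 clusters per 100 kb over the 2 lists, included HIBADH (122 WT and 51.7 F125A clusters per 100 kb), MECOM (120 and 55.3), ATP2B1 (115 and 51.1) and RERE (114 and 54.2). They encode a mitochondrial dehydrogenase, a zinc finger transcription factor, a plasma membrane calcium pump and a nuclear receptor corepressor. Of these, MECOM (580 kb) and RERE (465 kb) were the longest, so none of these genes alike in density was alike in length.

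The genes nearest to AUTS2 in length had lower densities in both lists. ERBB4, a receptor tyrosine kinase gene of 1163 kb, had 78.5 WT and 35.6 F125A clusters per 100 kb. ROBO1, a receptor for SLIT proteins, had 33.8 and 15.7, and GPHN, which encodes the synaptic scaffold gephyrin, 30.8 and 14.1. GPC6, a glypican gene, had 27.4 and 13.0, and KAZN 10.4 and 4.57. Between AUTS2 and KAZN, WT density thus differed by more than 10 times. AUTS2 was selected on its number of clusters, so its highest density among these 6 genes of like length was fixed beforehand.

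**Figure D1:**
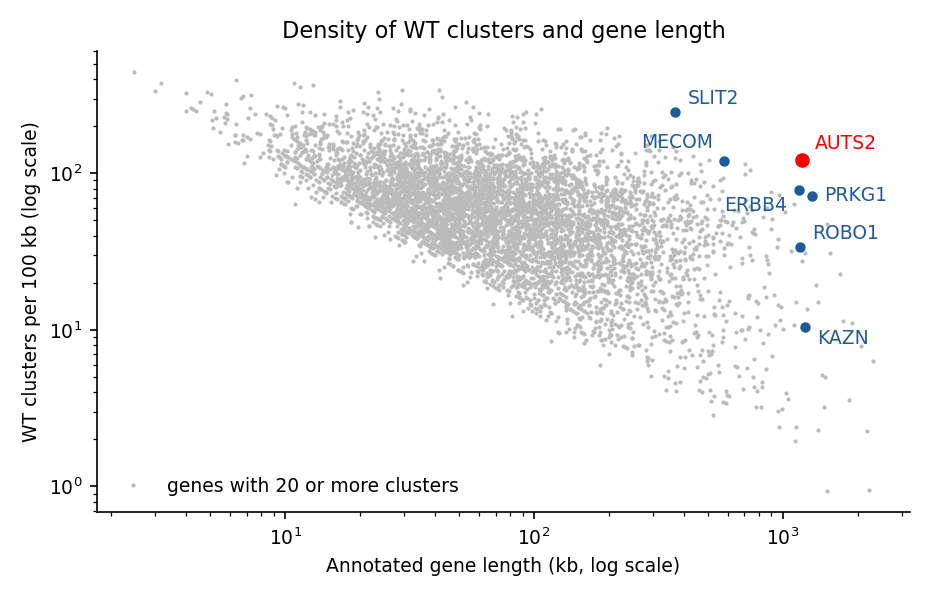
WT clusters per 100 kb (log scale) against annotated gene length in kb (log scale) for the 5626 tested genes (grey points), with 7 genes marked. AUTS2 (red, 122 clusters per 100 kb at 1195 kb) lies at the upper edge of the longest genes and below shorter genes such as SLIT2 (245 at 369 kb); the slanting lower edge of the points is set by the minimum of 20 clusters.

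The pair of genes that follow AUTS2 most closely on the chromosome held very few clusters. GALNT17, a glycosyltransferase gene of 581 kb that starts 339 kb beyond AUTS2, had 4 WT and 2 F125A clusters, and CALN1, a calcium-binding protein gene of 725 kb, had 2 and none. TYW1B, a tRNA-modifying enzyme gene farther on, had more, 38 and 10. On the 5' side the nearest protein-coding genes lay over 2309 kb away. There SPDYE21 had no cluster of its name, TYW1 had 46 WT and 22 F125A clusters, and SBDS, a ribosome maturation gene, had 2 and 3. The lists cover introns of protein-coding genes only, so the space between these genes was not surveyed. Inside the bounds of AUTS2 the RefSeq table places 4 lncRNA genes, without their strand, and 27 WT and 9 F125A clusters of AUTS2 lay within them. For these few clusters the gene of origin cannot be told apart.

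Along the gene, WT clusters were most frequent at the 5' end. In windows of 50 kb counted from the annotated start, the first held 149 WT clusters, the second 129, the third 117 and the fourth 113. The F125A list had 80, 74, 62 and 39 clusters in the same windows. The first 200 kb thus held 508 WT clusters, 34.7% of the list's AUTS2 clusters, and 255 F125A clusters, 40.4%. The fifth of the 5 fullest windows was that from 600 to 650 kb, with 88 WT and 41 F125A clusters. In 3 equal parts of the gene, WT clusters numbered 748, 428 and 287 and F125A clusters 354, 164 and 113.

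The first of these parts accordingly held 51.1% of WT and 56.1% of F125A clusters in AUTS2. Over the 183 tested genes of at least 500 kb, the median share in that part was 48.4% for WT clusters (quartiles 25.2 and 63.0%), and AUTS2 ranked 81 of 183. For F125A clusters the median was 52.0% over 182 genes and AUTS2 ranked 79. Genes of like length varied widely: the same part held 76.2% of WT clusters in ERBB4, 74.3% in GPHN, 66.0% in GPC6, 0.51% in ROBO1 and none in KAZN. PRKG1, a cGMP-dependent kinase gene and the next after AUTS2 in number of WT clusters, had 53.0%. The lean of AUTS2 toward the 5' end was therefore near the middle of what long genes showed.

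Within this slope the counts formed a row of steps. The emptiest windows were those from 1050 to 1100 kb with 13 WT and 3 F125A clusters, 800 to 850 kb with 19 and 3, 250 to 300 kb with 23 and 9, 750 to 800 kb with 24 and 5, and 950 to 1000 kb with 29 and 9. From 1 window to the next, WT clusters were at least 1.5 times as many at 4 places, a bound set after the values were seen. At 300 kb (position 69898475) they went from 23 to 67, at 550 kb (70148475) from 35 to 69, at 850 kb (70448475) from 19 to 65 and at 1100 kb (70698475) from 13 to 66. After each step the counts went down again over the following windows, although not in every window.

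F125A clusters stepped up at the same 4 places, from 9 to 42, from 16 to 36, from 3 to 28 and from 3 to 35. Their steps were 4.67, 2.25, 9.33 and 11.7 times, against 2.91, 1.97, 3.42 and 5.08 times in the WT list. The places were picked by the WT counts. At 500 kb F125A clusters also rose past the same bound, from 8 to 16, where WT clusters went from 36 to 35. Between windows of 25 kb the WT count went up by at least 1.5 times at 8 places, and the 4 largest of these lay at 300, 525, 850 and 1100 kb. At 525 kb WT clusters went from 6 to 29 and F125A clusters from 2 to 14. The positions of exons were not used here, so where these steps lie relative to exons was not tested. Across the 24 windows the WT and F125A counts ranked almost alike (Spearman's rho 0.96, a description over windows of 1 gene that share the gene's transcript and the libraries).

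**Figure D2:**
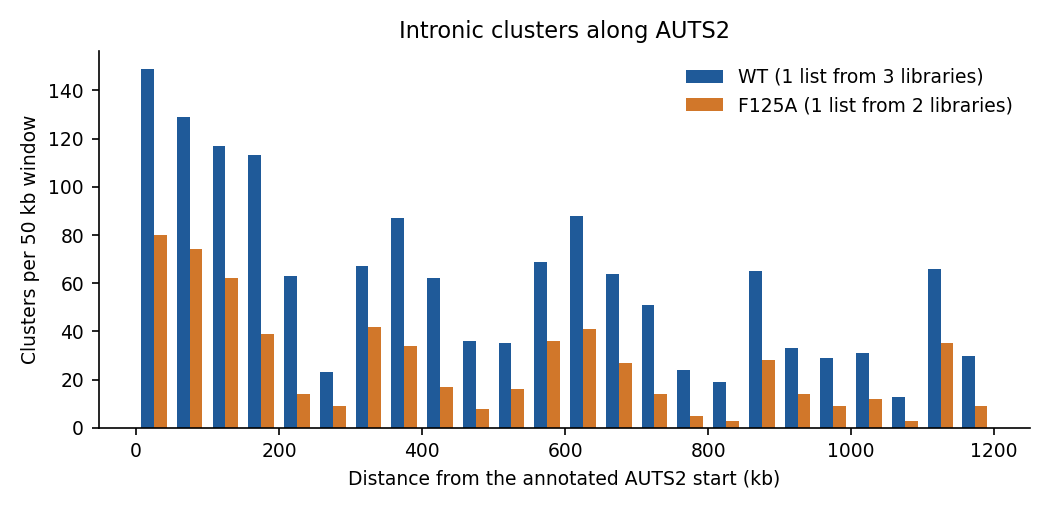
Clusters per 50 kb window (vertical axis) against distance from the annotated AUTS2 start in kb, with WT in blue and F125A in orange; each group is 1 list, so there are no error bars, and the last window is 45.0 kb long. Both lists are highest in the first windows (149 WT and 80 F125A clusters in the first) and step up at 300, 550, 850 and 1100 kb.

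Relative to the list totals, AUTS2 as a whole had a balance of WT to F125A clusters just below the upper quartile of the tested genes. It had 2.32 WT clusters for each F125A cluster, against 1.95 over the lists. With 1 added to each count, and that of the list totals taken off, the log2 ratio of WT to F125A was 0.25 (interval 0.11 to 0.39). Here and below, intervals of ratios were computed with nothing added, so for small counts they are not centred on the ratio printed. The 5626 tested genes had a median of -0.04 with quartiles of -0.36 and 0.26. Because the list totals differ, the added 1 draws genes with few clusters toward F125A, and it hardly moves AUTS2. How much of the distance of AUTS2 from that median comes from this was not tested. The 282 genes of similar length had a median of 0.42, relative to which AUTS2 lay at -0.17, so its direction turned with that correction. PRKG1 (0.23), ERBB4 (0.18), KAZN (0.20), GPHN (0.16), ROBO1 (0.14), HIBADH (0.27), MECOM (0.15) and ATP2B1 (0.20) had ratios within the interval of AUTS2. RERE (0.110) and GPC6 (0.105) lay below its lower end of 0.115, as did the 5 genes of highest WT density named above, SLIT2 (-0.04) among them. PTPRG (0.08) and TTC28 (-0.27), both with many WT clusters, lay below it too.

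The ratio was not even along the gene. It was -0.07, -0.17 and -0.06 in the first 3 windows and 0.55 in the fourth, then 1.13 from 200 to 250 kb, where there were 63 WT and 14 F125A clusters. Of the 23 windows with at least 20 clusters, 17 lay above 0 and 6 below. Most long genes lay above 0 too: 1506 of the 2103 tested genes of at least 100 kb, each taken whole. Their 5239 windows of that kind had a median of 0.12, and those of AUTS2 0.30. Taken whole, the 2103 genes had a median of 0.19 and the 282 genes of similar length 0.42. Windows of these 282 genes alone were not compared, so no window value here is matched for gene length to AUTS2. A 2-fold or larger lean toward WT was seen in 4 windows, where 4.08% of all 5239 such windows in genes of at least 100 kb passed that bound, and none leaned 2-fold toward F125A, against 0.134% of all such windows. The 4 were those from 200 to 250 kb (1.13, interval 0.36 to 2.16), 450 to 500 kb (36 WT and 8 F125A clusters, 1.08, 0.08 to 2.52), 750 to 800 kb (1.10, -0.12 to 3.05) and 800 to 850 kb (1.36, -0.06 to 4.10). With windows of 100 kb none passed the bound, and with windows of 25 kb 2 did. The interval held 0 in the latter pair of the 4, so for those the counts are too few to show a lean.

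Windows with few clusters tended to have higher ratios. The 5 fullest windows together held 596 WT and 296 F125A clusters, 2.01 WT for each F125A cluster (ratio 0.04, interval -0.16 to 0.25). The 5 emptiest held 108 and 29, or 3.72 for each (0.90, 0.33 to 1.58). Spearman's rho between WT clusters and the ratio was -0.65 over the 24 windows, and the WT count enters both measures. The same rho was -0.60 over 23 windows of ERBB4, -0.16 over 25 windows of PRKG1 and 0.03 over 24 windows of GPC6. It was 0.59 over 14 windows of ROBO1 and 0.73 over 11 windows of KAZN. These last 2 genes had no WT cluster in 10 and 14 other windows, so their values cover only part of each gene. In MECOM the rho was -0.39, in RERE -0.13, in GPHN 0.06 and in SLIT2 0.17, so long genes did not share 1 sign. At each of the 4 steps the ratio went down as the counts went up, from 0.30 to -0.30 at 300 kb, from 0.12 to -0.04 at 550 kb, from 1.36 to 0.22 at 850 kb and from 0.84 to -0.07 at 1100 kb. Read depth, which is unknown, could not be set beside these values.

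**Figure D3:**
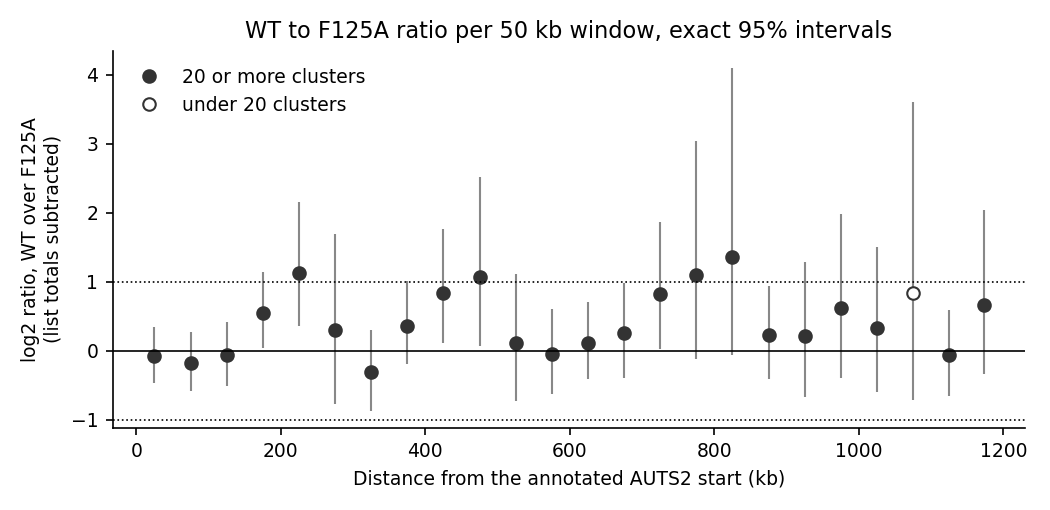
Log2 ratio of WT to F125A clusters per 50 kb window of AUTS2 against distance from the annotated start in kb. Points have 1 added to each count and the ratio of the list totals taken off. Bars are exact 95% binomial intervals for counting error, computed with nothing added to the counts. Dotted lines mark 2-fold, and the open point has under 20 clusters. The ratio was near 0 in the first 3 windows (-0.17 to -0.06) and at or above 2-fold toward WT in 4 windows between 200 and 850 kb.

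Of the 5 longest stretches of AUTS2 without a WT cluster, 3 ended within 5 kb of a step. The 5 were 11.6 kb (chr7:69886825-69898374, from 288 to 300 kb past the start), 11.3 kb (chr7:69861345-69872630), 10.4 kb (chr7:70642471-70652823), 10.1 kb (chr7:70684734-70694869) and 8.78 kb (chr7:70115017-70123796). The first, the fourth and the fifth of these ended at 300, 1096 and 525 kb. These ends lay next to the steps at 300 and 1100 kb and to the step that windows of 25 kb placed at 525 kb. Steps were set by low WT counts followed by higher ones, so such a meeting is partly built in and nothing further is read from it. The median distance between neighbouring WT clusters was 361 nt (quartiles 93.25 and 871.5 nt), and 23 of 1462 distances were over 5 kb. Of the 5 longest stretches, 3 held no F125A cluster either and the others held 1 each.

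F125A clusters were sparser, with a median distance of 780 nt (quartiles 243.75 and 1983 nt). Their longest stretch without a cluster was 61.7 kb (chr7:70357768-70419424, from 759 to 821 kb past the start), in which the WT list had 25 clusters. The next were 23.1 kb (chr7:70661472-70684562, 7 WT clusters), 20.2 kb (chr7:70061799-70081973, 8 WT clusters), 19.0 kb (chr7:70642471-70661432, 3 WT clusters) and 16.8 kb (chr7:70419487-70436239, 5 WT clusters). The first and the last of these are parted by a single F125A cluster, so nearly the whole stretch before the step at 850 kb was bare in that list.

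Almost every AUTS2 place in the F125A list was in the WT list too. Of 631 F125A clusters, 602 shared at least 1 nt with a WT cluster on the same strand, 95.4% (interval 93.5 to 96.9%). Over all genes the share was 85.5%. Among the 210 genes of similar length with at least 20 F125A clusters the median was 90.2% (quartiles 86.5 and 93.0%), and AUTS2 ranked 13. The share was 93.4% in PRKG1 and 89.9% in ERBB4. Of genes near AUTS2 in density, MECOM had a higher share, 96.3%, and ATP2B1 (90.3%), RERE (90.1%) and HIBADH (87.3%) lower ones. SLIT2 had 93.9%. WT clusters are dense in AUTS2, which was selected on numbers of clusters, and how far the share follows from that was not tested. In the 3 equal parts of AUTS2 it was 96.6%, 95.7% and 91.2%, with intervals that overlap.

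In the other direction, 632 of 1463 WT clusters, 43.2% (40.6 to 45.8%), shared at least 1 nt with an F125A cluster, against 45.2% over all genes. The median of 277 genes of similar length was 33.8%, and AUTS2 ranked 50. It was 51.8% (47.3 to 56.2%) in the first 200 kb and 38.6% (35.5 to 41.8%) beyond. By window it ran from 15.8% at 800 to 850 kb, where 3 of 19 WT clusters overlapped an F125A cluster, to 58.2% at 300 to 350 kb with 67 WT clusters. The share tended to be higher in windows with more WT clusters. It was 56.4%, 56.6% and 53.8% in the 3 fullest windows and 15.8 to 34.8% in the 5 emptiest. Some windows departed from this: that from 150 to 200 kb had 113 WT clusters and a share of 38.1%. The window from 200 to 250 kb had 63 and 23.8%, and that from 550 to 600 kb had 69 and 53.6%. With 631 F125A clusters in the gene, most of the 1463 WT clusters could not have had a partner of their own.

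Joined where they overlapped, the clusters of both lists made 1442 separate places in AUTS2. Of these, 582 (40.4%) were found in both lists, 831 (57.6%) with WT alone and 29 (2.01%) with F125A alone. The 29 lay at a median distance of 292 nt from the nearest WT cluster, 5 of them within 100 nt and 2 over 1 kb away. Those 2 were at chr7:69865198-69865246 (49 nt, 3853 nt from the nearest WT cluster) and chr7:69643578-69643628 (51 nt, 1543 nt). WT clusters without a partner lay a median of 545 nt from the nearest F125A cluster, and 269 of the 831 lay over 1 kb away. The lists differ in how densely they fill the gene, so these distances are not compared.

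A single WT and a single F125A cluster met at 530 places. The left edges, the 5' edges on this strand, lay within 2 nt of each other at 213 of them (40.2%), near the 40.5% for 5' edges over all genes. The right edges did so at 231 (43.6%), and the median offset was 4 nt at either edge. At 97 places both edges lay within 2 nt. The F125A cluster was the shorter at 290 of the 530 places (54.7%) and the longer at 216 (40.8%), with medians of 64 nt for F125A and 67 nt for WT. Over all genes, at 139762 such places, F125A was the shorter at 50.7% and the longer at 42.1%, with medians of 62 and 64 nt. Matched place by place, F125A clusters were therefore more often the shorter ones, although the median over the whole list was higher for F125A.

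Over all its clusters AUTS2 had a median length of 60 nt in the WT list (quartiles 47 and 76 nt, range 24 to 183) and 64 nt in the F125A list (quartiles 49 and 78.5 nt, range 24 to 165). These medians equal those of all genes, 60 and 64 nt. Inserts of 20 to 80 nt were selected during library preparation, and 283 WT clusters (19.3%) and 144 F125A clusters (22.8%) were longer than 80 nt, so more than 1 insert is needed to span them. Over all genes these shares were 20.7% and 26.2%. WT clusters with an F125A partner had a median of 65 nt and those without 56 nt. Of WT clusters under 48 nt, 30.4% (25.9 to 35.2%) had a partner, of those of 48 to 80 nt 45.7% (42.2 to 49.3%), and of those over 80 nt 54.1% (48.1 to 60.0%). Over all genes the same classes had 36.4%, 45.5% and 54.9%, and the interval of AUTS2 left out the value of all genes in the shortest class only.

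**Figure D4:**
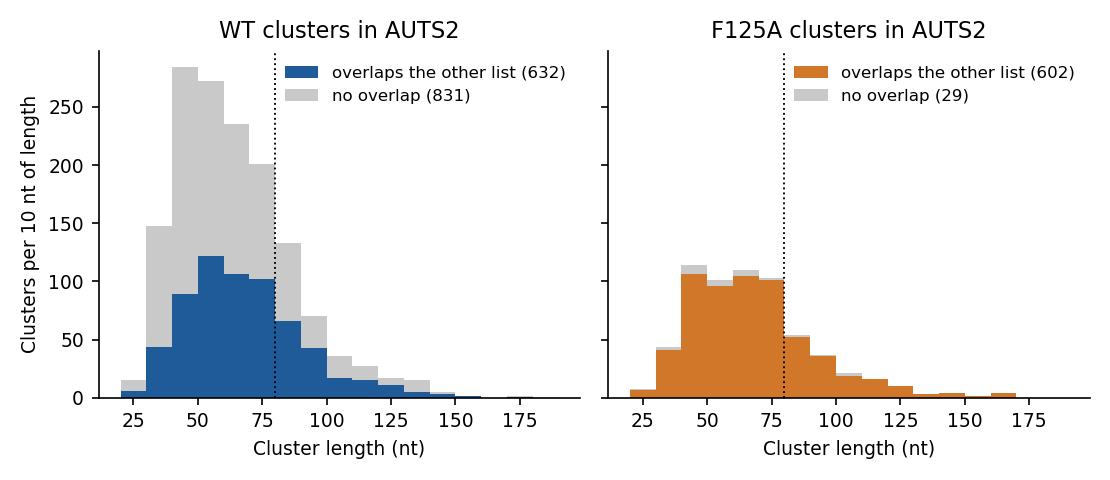
Histograms of cluster length in nt (bins of 10 nt) for WT clusters (left) and F125A clusters (right) of AUTS2, with clusters that overlap the other list in colour and those that do not in grey; the dotted line marks 80 nt, the longest selected insert. In the WT list 831 of 1463 clusters are grey, with a median of 56 nt against 65 nt for those in colour and a wide overlap in length, whereas in the F125A list 29 of 631 are grey.

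The longest single clusters of the WT list lay in the 5' part of the gene, and those of the F125A list were spread along it. In the WT list they were 183 nt (chr7:69602038-69602220), 174 nt (chr7:69755671-69755844), 171 nt (chr7:69628155-69628325), 158 nt (chr7:69754359-69754516) and 150 nt (chr7:69608450-69608599). All 5 lay within the first 200 kb, and those of 183 and 171 nt had no F125A partner. The F125A list had 165 nt (chr7:69608411-69608575), 164 nt (chr7:69930910-69931073), 164 nt (chr7:70277885-70278048), 161 nt (chr7:70146273-70146433) and 152 nt (chr7:70490305-70490456), and each overlapped a WT cluster. They lay 9.94, 332, 679, 548 and 892 kb past the gene start. The WT cluster of 150 nt and the F125A cluster of 165 nt were 1 place, 10.0 kb past the gene start.

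Neighbouring clusters often stood close enough to form runs. No clusters of 1 list overlapped, but 92 WT and 22 F125A neighbours touched end to end, and 251 of 1462 WT distances (17.2%) and 55 of 630 F125A distances (8.73%) were under 50 nt. The longest WT run, with distances under 50 nt, was 424 nt of 6 clusters at chr7:69606075-69606498, 7.60 kb past the gene start, where the F125A list had 4. It was followed by runs of 387 nt (chr7:69632608-69632994, 5 clusters), 361 nt (chr7:70157980-70158340, 3 clusters), 338 nt (chr7:69761315-69761652, 5 clusters) and 334 nt (chr7:69659115-69659448, 3 clusters). The longest F125A runs were 284 nt (chr7:69651766-69652049), 264 nt (chr7:69601381-69601644), 251 nt (chr7:69929340-69929590), 242 nt (chr7:69604396-69604637) and 241 nt (chr7:69702165-69702405), and each held WT clusters too. WT clusters with a neighbour under 100 nt away had an F125A partner in 47.5% (43.5 to 51.5%), and those with none nearer than 1000 nt in 30.3% (21.8 to 39.8%).

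Of the genes of the AUTS2 family and of its protein partners, 20 had enough clusters to be tested. With 1 added to each count, none of the 20 lay 2-fold or more toward either form, where 2.51% of all 5626 tested genes leaned that far to WT and 1.99% to F125A. That count of 0 depends on the setting, since CSNK2A2, described below, passes the bound toward WT under 3 others. FBRSL1, the paralog most like AUTS2, had 89 WT and 41 F125A clusters (ratio 0.14, interval -0.39 to 0.73) and FBRS, the other paralog, 16 and 9 (-0.20, -1.40 to 1.23). Per 100 kb they had 93.6 and 43.1, and 129 and 72.7, so FBRS had a WT density like that of AUTS2 in a gene of 12.4 kb.

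Of 19 genes for Polycomb repressive complex 1 subunits and the partners that AUTS2 brings to it, 17 had clusters of their own name and 12 had enough to be tested. Their median was -0.07, and 6 lay above 0, 6 below and none at 2-fold in either direction with 1 added. PCGF3 and PCGF5, whose products define the complexes that hold AUTS2, had 40 WT and 26 F125A clusters (-0.36, -1.09 to 0.43) and 41 and 18 (0.18, -0.61 to 1.11). RNF2, the E3 ligase subunit, had 50 and 31, RYBP and YAF2, adaptor subunits, 68 and 27 and 77 and 35, and EP300, a histone acetyltransferase that AUTS2 recruits, 89 and 40. For casein kinase 2, which AUTS2 also brings in, CSNK2A1 had 77 and 56 (-0.51, -1.02 to 0.02) and CSNK2A2 34 and 8 (1.00, -0.01 to 2.45), just short of 2-fold before rounding. CSNK2A2 passed the bound relative to genes of similar length (1.19), centred on the median gene (1.03) or with nothing added (1.12), but not with 5 added (0.62). CSNK2B (4 and 3), RING1 (3 and 2), CBX2 (8 and 6), CBX6 (10 and 5) and CBX8 (1 and 1) had too few clusters. Other tested members were PCGF2 (16 and 14), PCGF6 (45 and 20) and KDM2B (38 and 28), PCGF1 had none, and BMI1 occurred only in 12 clusters (both lists together) that name it with another gene.

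The 6 genes for the cytoskeletal side of AUTS2 function were all tested and had a median of 0.10; 3 lay above 0, 3 below, and none at 2-fold. PREX1, an exchange factor for the GTPase Rac1, had 21 WT and 7 F125A clusters (0.50, interval -0.67 to 2.10). ELMO2 and DOCK1, which form another exchange factor for Rac1, had 16 and 10 (-0.33) and 251 and 110 (0.22). RAC1 itself had 28 and 14 (-0.01), CDC42, a related GTPase, 57 and 35 (-0.27), and ITSN1, an exchange factor for CDC42, 176 and 70 (0.36, -0.04 to 0.79). All 6 intervals held 0. None of the 6 had a WT density above that of AUTS2, the nearest being CDC42 with 117 clusters per 100 kb.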

How the data were processed

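Nuclease-protected RNA was sequenced from 6 libraries, of which the 5 of the WT and F125A groups, assigned by their titles, are represented by 2 deposited lists. Per the labels' protocols, primers carried molecular identifiers of 4 nt and inserts of 20 to 80 nt were selected. Per the submitters' processing notes, cutadapt, STAR and hg38 were used; versions, how clusters were called, whether the control entered and how libraries were joined are not stated in the sources used here. The authors' lists give, per the file headers, chromosome, start, end, gene, region and strand, with no count or other unit; starts were read as 0-based and printed 1-based.

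Repeated rows were dropped (7029 of 373458 WT and 4851 of 192878 F125A rows, none of AUTS2), and 5433 successive rows that the lists share word for word held no AUTS2 row. Of 11805 gene names, 11799 matched RefSeq's GRCh38.p14 table, which gave gene bounds without exons. Overlap meant at least 1 nt on the same strand. A cluster was placed in a window by its midpoint. Shares and ratios carry exact (Clopper-Pearson) 95% intervals, densities exact Poisson ones, all treating clusters as independent. Those of ratios were computed from counts with nothing added. Genes of similar length share 1 of 20 bins of the tested genes. Statistics were tested on simulated data (Python 3.11.15, scipy 1.17.1, pandas 2.3.3).

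Named were AUTS2, its family and partner lists, 3 neighbours on each side, and 5 genes each nearest in density, nearest in length, of highest density and of most WT clusters, with the 5 extreme windows, clusters, gaps and runs. The gene and the lists were chosen with earlier results of these data known. Alternatives covered repeats, merging, overlap rule, added count, centring, minimum, window size and gene span. Sequences of clusters were not analysed here, and a few genes that the rule names are not reported here.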

Additional observations from a re-analysis of the deposited data

How the results depend on the processing

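Counts of AUTS2 clusters, their median length, their density and the log2 ratio with 5 added, centred on the median gene, merged within 50 nt or without the identical stretch stayed close to the values given (ratio 0.15 to 0.29). Centred on genes of similar length, AUTS2 had a ratio of -0.17. The overlapped share of WT clusters was 53.1% when clusters within 100 nt counted, and that of F125A clusters 92.9% when 50% of the cluster had to be covered. Among genes of at least 100 kb the density ranks were 75 (WT) and 154 (F125A). The fullest over the emptiest complete window was 11.5 times for WT and 26.7 for F125A at 50 kb, and 6.32 and 10.3 at 100 kb; at 25 kb it had no value for F125A, since 1 window had no cluster. Windows 2-fold or more toward WT numbered 4 at 50 kb, 0 at 100 kb and 2 at 25 kb; both other sizes were chosen for this count after seeing the data, as were the settings for the family and partner genes. Of these 20 genes, 0 lay 2-fold or more toward WT as reported, and 1, CSNK2A2, did so with nothing added, centred on the median gene or centred on genes of similar length. Genes 2-fold or more toward WT numbered 141, or 263 with a minimum of 10 clusters and 36 with 5 added; toward F125A they numbered 112, or 273 with a minimum of 10. No paired analysis was possible because each group is 1 list and no result comes from a test, and libraries could not be left out 1 at a time for the same reason. Depth is unknown, so which WT clusters without a partner fell under a detection limit with F125A was not tested.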
